A study of Nitraria sibirica with 9 samples.

Results

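Leaves of the salt-land shrub Nitraria sibirica are described here through their 227 most abundant transcript clusters. They were chosen by 1 rule on measured values: a mean FPKM (fragments per kilobase of cluster and per unit of sequencing depth) of at least 500 over 9 leaf libraries, taken from the deposited table of 31628 clusters with a length. That table holds the clusters with an FPKM over 0.3 in every library, out of 126059 clusters in the library tables. Abundance itself is therefore no finding, and levels are given as a description. All 227 clusters passed the filter on low counts before testing. The clusters just inside the threshold had mean FPKMs of 507.701, 506.943 and 502.754, and those just outside had 498.708, 498.128 and 498.114.

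Seedlings were kept in a greenhouse and their leaves were sampled with no added NaCl, at 100 mM NaCl or at 400 mM NaCl, each for 3 days and with 3 libraries a level. Salt was added in daily steps of 50 mM, timed so that all levels were reached together, which means an earlier start for the higher level. Salt level and time in salt can therefore not be told apart between 100 and 400 mM. The labels give no line or genotype within the species and do not say whether replicates were separate plants, so p-values may rest on technical spread alone. Total counts per library ran from 16502728 to 23933039.

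A leaf transcriptome is strongly uneven, because a leaf cell devotes much of its messenger RNA to photosynthesis. In seed plants, the nuclear messages for the small subunit of Rubisco, which fixes carbon dioxide, and for the light-harvesting chlorophyll proteins are commonly among the most abundant. Halophytes such as Nitraria meet salt by sequestering sodium in the vacuole, building compatible solutes and detoxifying reactive oxygen, while leaf growth and carbon fixation are adjusted. The files used here pair no cluster with a gene name, a protein or a sequence. Which clusters carry these functions can therefore not be said, and the clusters are named below by their rank of mean FPKM. An identifier is given for a few clusters whose change with salt is described. A cluster is a unit of an assembly made without a genome, so a gene may be split over several clusters, and reads shared by near-identical clusters may be divided among them.

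Libraries with the replicate number 1 stood apart for a few of these clusters, at all salt levels. The cluster ranked 116, of 1548 bases, had 2.14, 908.81 and 2115.29 FPKM in 0 mM replicates 1, 2 and 3. At 100 mM it had 1.33, 1462.83 and 1317.28 FPKM, and at 400 mM 0.64, 1025.05 and 1021.51 FPKM. It was thus near 0 in the 3 libraries numbered 1 and abundant in the other 6. The clusters ranked 157 (614 bases) and 183 (731 bases) followed the same course. Rank 157 had 0.65, 0.36 and 0.59 FPKM in the libraries numbered 1 at 0, 100 and 400 mM and between 758.32 and 1655.41 FPKM in the other 6. Rank 183 had 1.12, 0.55 and 0.91 FPKM in the libraries numbered 1 and between 598.90 and 1337.49 FPKM in the others. Behind the low values lay 3 to 46 counts. In the 6 other libraries the FPKM of rank 157 was 0.725 to 0.846 of that of rank 116, and rank 183 stood at 0.632 to 0.705 of it, so these clusters kept a nearly fixed proportion.

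These 3 were the only clusters of the deposited table that were at least 100-fold lower in every library numbered 1 than in all 6 others. Among all 126059 clusters 66 were. For number 2 the same count was 23 and for number 3 it was 28, with 0 of the 227 clusters in either case. A further cluster outside the deposited table, with a mean of 563.78 FPKM, shared the course of rank 116. It had 0.23 to 0.69 FPKM in the libraries numbered 1 and 635.66 to 1370.87 FPKM elsewhere. A last abundant cluster outside that table was confined to 2 libraries, with 5072.66 FPKM in 100 mM replicate 1 and 2193.29 FPKM in 100 mM replicate 2 against 0 to 1.31 FPKM in the other 7. What separates the libraries numbered 1 was not tested.

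Another 2 of the 227 clusters were under 5 FPKM in at least 1 library, but not in all libraries numbered 1. Rank 198 had 1.28, 845.09 and 670.64 FPKM at 0 mM, 1777.96, 0.85 and 766.82 FPKM at 100 mM, and 0.56, 902.81 and 0.70 FPKM at 400 mM. Rank 167 had 1129.86, 205.16 and 10.39 FPKM at 0 mM, 871.86, 7.69 and 404.74 FPKM at 100 mM, and 2048.84, 3.61 and 1072.44 FPKM at 400 mM. Low and high libraries thus lay side by side within each level. Rank 167 was highest in replicate 1 at every level, while the low libraries of rank 198 had differing numbers. A principal component analysis of log2(FPKM + 1) over the 227 clusters placed the libraries numbered 1 at scores of -15.2, -7.93 and -12.0 on the leading component, which held 42.9% of the variance, against 2.50 to 8.38 for the others. Without the 5 clusters just described, the leading component held 52.3% and separated salt from no salt. The 0 mM libraries then scored -12.3, -6.13 and -8.13. At 100 mM the scores were 2.53, 7.01 and 4.64, and at 400 mM they were 0.98, 3.05 and 8.38. The library numbered 1 thus still had the lowest score within each level. The list was chosen on the same FPKM values, so the separation of salt from no salt is only a description of it.

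The abundance of the 227 clusters declined steeply with rank and was led by 2 clusters of very different length. The top cluster, of 1043 bases, had 35711.16, 36876.12 and 35795.87 FPKM at 0 mM, 26213.70, 35987.95 and 39563.15 FPKM at 100 mM, and 29026.81, 32535.66 and 35037.53 FPKM at 400 mM. It was the highest of the table in 7 of the 9 libraries, the exceptions being 0 mM replicate 3 and 100 mM replicate 1. Averaged over the libraries it held 3.41% ± 0.418 of the FPKM of the table and 2.71% ± 0.328 of all counts (SD, n = 9 libraries). On FPKM its 400 mM libraries all lay below its 0 mM libraries. In the edgeR fit, which scales libraries differently, its log2 fold changes were 0.17 ± 0.23 and 0.02 ± 0.23 (SE) at the moderate and the high salt level, and neither was called (adjusted p = 0.806 and 0.982).

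Rank 2 was only 248 bases long. It had 31855.48, 20433.93 and 48646.70 FPKM at 0 mM, 29278.30, 14379.66 and 22469.48 FPKM at 100 mM, and 13097.03, 17004.99 and 11623.53 FPKM at 400 mM. All 400 mM libraries lay below all 0 mM libraries, but the difference was not called, with a log2 fold change of -1.18 ± 0.40 (SE, edgeR adjusted p = 0.282). This cluster held 2.29% of the table's FPKM but 0.0466% of the counts, 9195 on average per library. The deposited FPKM implies a length of 19.5 bases for it, so that a small share of the counts gave a very high FPKM.

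Ranks 3 to 10 had mean FPKMs between 5307 and 7541 and lengths between 351 and 1858 bases. Rank 6, the longest of the 10 highest, had 5579.66, 6335.15 and 5261.80 FPKM at 0 mM, 5246.64, 5540.12 and 7603.67 FPKM at 100 mM, and 7378.25, 5970.86 and 7348.02 FPKM at 400 mM, with overlap between all levels. In contrast, rank 10 spread widely within each level, with 15286.50, 3813.94 and 11198.29 FPKM at 0 mM, 6002.63, 215.95 and 5126.74 FPKM at 100 mM, and 3052.43, 2911.00 and 155.62 FPKM at 400 mM. Among ranks 1 to 10, 6 had all 400 mM libraries below all 0 mM libraries on FPKM and 0 had them all above, against 17.8% and 9.67% of the table. In the edgeR fit, which scales libraries differently, 3 of the 10 had an unadjusted p under 0.05 for a lower level at 400 mM, and 0 were called.

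**Figure D1:**
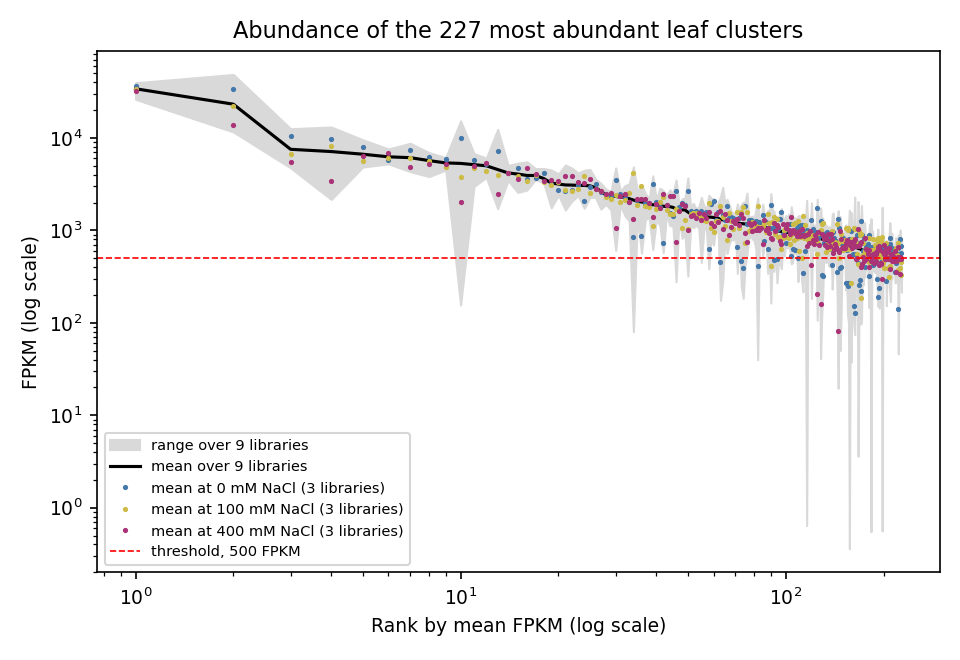
FPKM of the 227 clusters by rank, both axes on a log scale. The line is the mean over 9 libraries, the band the range over them, dots are the means of 3 libraries at 0, 100 and 400 mM NaCl, and the dashed line is the threshold of 500 FPKM. Levels run from 34083 FPKM at rank 1 to 502.754 FPKM at rank 227, and the band drops to near 0 for the 5 clusters under 5 FPKM in at least 1 library.

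Most of the clusters reached the threshold at every salt level. The level mean was at least 500 FPKM at all 3 levels for 151 clusters, at 2 levels for 61 and at a single level for 15. Of the 61, 33 reached it at 100 and 400 mM, 18 at 0 and 100 mM and 10 at 0 and 400 mM. Of the 15, 11 reached it at 0 mM alone, 2 at 100 mM alone and 2 at 400 mM alone. In all 9 libraries 107 clusters stood at 500 FPKM or more. A list made from the 0 mM libraries alone would hold 221 clusters, of which 190 are among the 227. That is 83.7% of the 227 and 86.0% of the other list. Because libraries of all levels entered the rule, a cluster could enter through the level at which it was high. Counts of higher and lower clusters, above and below, are therefore a description of the list.

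The 227 clusters held a large part of the leaf libraries, more on FPKM than on counts. Of the table's FPKM they held 37.954%, 35.296% and 39.907% at 0 mM, 35.193%, 33.974% and 37.230% at 100 mM, and 34.590%, 33.856% and 35.774% at 400 mM. These values average to 37.7% ± 2.31, 35.5% ± 1.65 and 34.7% ± 0.968 in the same order (SD, n = 3 each). The share was 2.25 percentage points lower at 100 mM and 2.98 lower at 400 mM than at 0 mM, and the libraries of all 3 levels overlapped. Of all counts the means were 22.0% ± 0.720, 20.7% ± 1.32 and 20.5% ± 1.06 by rising salt level (SD, n = 3 each), again with overlap. Exact 95% binomial intervals (Clopper-Pearson) of the share of counts reached 0.0164 to 0.0201 percentage points to either side in a library. They cover counting error only and are far narrower than the spread between libraries. In a library 516 to 767 clusters were enough to hold 50% of the table's FPKM, while 1270 to 1659 clusters held 50% of the counts.

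On FPKM, most of the lower mean share at salt lay with the 10 highest clusters. Ranks 1 to 10 held 13.691%, 10.619% and 14.379% of the table's FPKM at 0 mM, 10.809%, 9.105% and 10.793% at 100 mM, and 8.619%, 9.317% and 8.777% at 400 mM. All 400 mM libraries lay below all 0 mM libraries, while the 100 mM libraries overlapped the 0 mM libraries. The means were 12.9% ± 2.00, 10.2% ± 0.979 and 8.90% ± 0.366 (SD, n = 3 each). On counts the same clusters held 6.09% ± 0.378, 5.27% ± 0.594 and 5.12% ± 0.246. Rank 2 alone accounted for 3.24% ± 1.29 of the FPKM at 0 mM and 1.45% ± 0.308 at 400 mM. Without rank 2, the share of the remaining 226 clusters was 34.5% ± 1.08, 33.3% ± 1.47 and 33.3% ± 1.26 by rising salt level.

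Lower ranks showed other courses on FPKM. Ranks 11 to 50 held 10.7% ± 0.389, 10.3% ± 0.682 and 11.2% ± 0.699 of the FPKM at 0, 100 and 400 mM. Ranks 51 to 100 held 5.89% ± 0.0833, 6.05% ± 0.347 and 6.02% ± 0.424. Of the counts, ranks 11 to 50 held 5.39%, 4.72% and 4.97%, and ranks 51 to 100 held 4.83%, 4.48% and 4.43%. In both groups of ranks the levels thus lay close together on FPKM, and the 0 mM mean was the highest on counts. Ranks 101 to 227 held 7.752%, 8.450% and 8.543% at 0 mM, 8.959%, 8.696% and 9.041% at 100 mM, and 8.667%, 8.550% and 8.776% at 400 mM. For these 127 clusters each of the 6 salt libraries lay above each 0 mM library on FPKM, by a narrow margin of 8.550% against 8.543% at the closest. On counts this did not hold, since 400 mM replicate 2, at 5.65%, lay within the range of 5.435% to 5.96% at 0 mM. Most libraries averaged by the rule were salt libraries, so clusters near the threshold could enter through high values at salt. The order on FPKM is therefore only a description of the list. Shares are relative measures and sum to a whole, and in bulk leaf RNA fewer cells of a type and less RNA per cell cannot be told apart.

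**Figure D2:**
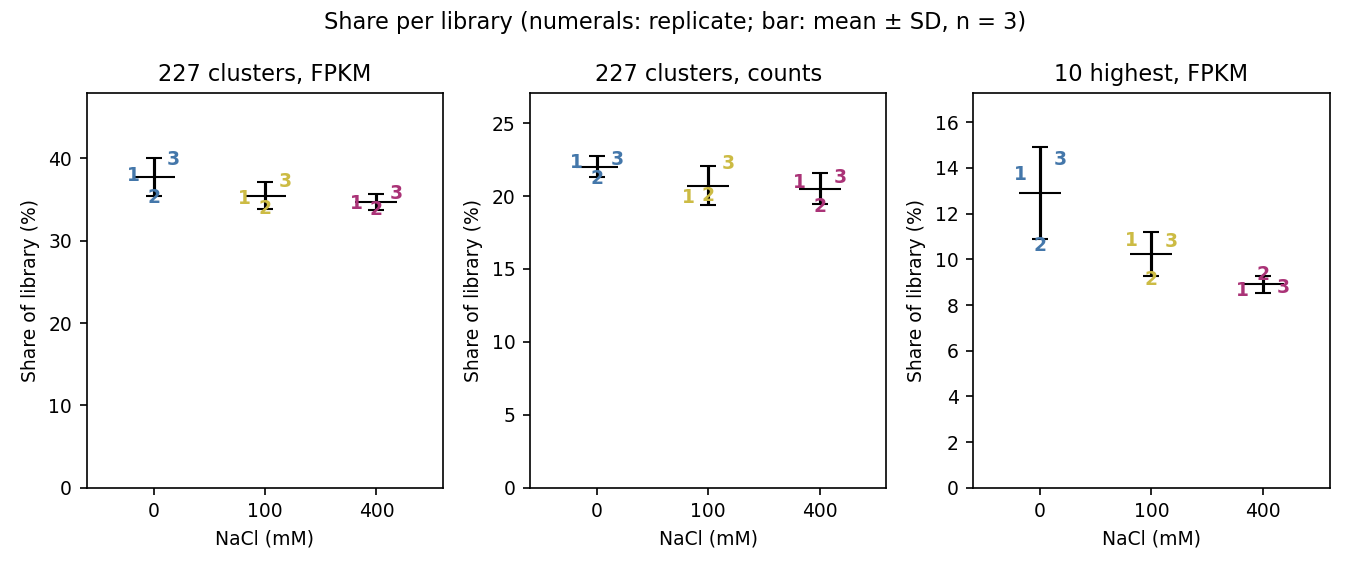
Share of each library held by the 227 clusters on FPKM of the deposited table, by the same clusters on counts, and by the 10 highest on FPKM, at 0, 100 and 400 mM NaCl. Numerals are replicates, bars the mean ± SD of 3 libraries. The libraries of the 3 levels overlap in the panels for all 227 clusters, while the 10 highest held 12.9% at 0 mM and 8.90% at 400 mM with no overlap between these levels.

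The abundant clusters were shorter than the table as a whole. Their median length was 877 bases (interquartile range 507 to 1229.5, from 202 to 2744), against 1476 bases in the table (876 to 2250, from 201 to 15080) and 996 bases for the 1307 clusters between 100 and 500 FPKM. Under 300 bases lay 25 of the 227 clusters, 11.01%, against 1.67% of the table. The longest were ranks 169, 195 and 199, with 2744, 2709 and 2217 bases. None reached the upper lengths of the table.

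Length and the rule are not independent, as FPKM divides by a length. The length implied by the deposited FPKM, counts and totals was a median of 246.5 bases shorter than the deposited length, both in the 227 clusters and in the table. For 22 of the 227 clusters the implied length was under 50 bases, and for 54 it was under 50% of the deposited length. The shortest clusters show what this does. Rank 18, of 202 bases, had a mean of 3645 FPKM from 258 counts per library at an implied length of 3.40 bases. Ranks 24 and 76, both of 209 bases, had 3065 and 1168 FPKM from 308 and 109 counts. The 25 clusters under 300 bases together held 6.44% of the table's FPKM and 0.175% of the counts. At the other end, 89 clusters over 1000 bases held 13.0% of the FPKM and 14.2% of the counts.

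With FPKM recomputed over the whole deposited length, 126 of the 227 clusters stayed at 500 or more, with a median length of 1032 bases. Of the 25 clusters up to 300 bases, 3 stayed. The corresponding numbers were 10 of 31 from 301 to 500 bases, 45 of 82 from 501 to 1000 bases and 68 of 89 above. A list of the 227 clusters with the highest CPM, counts scaled to the library total with no account of length, shared 135 of the 227 (59.5% of each list) and had a median length of 1492 bases, close to that of the table. The median length of the list thus varied with the length correction. Over the whole length it was still below the 1476 bases of the table.

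**Figure D3:**
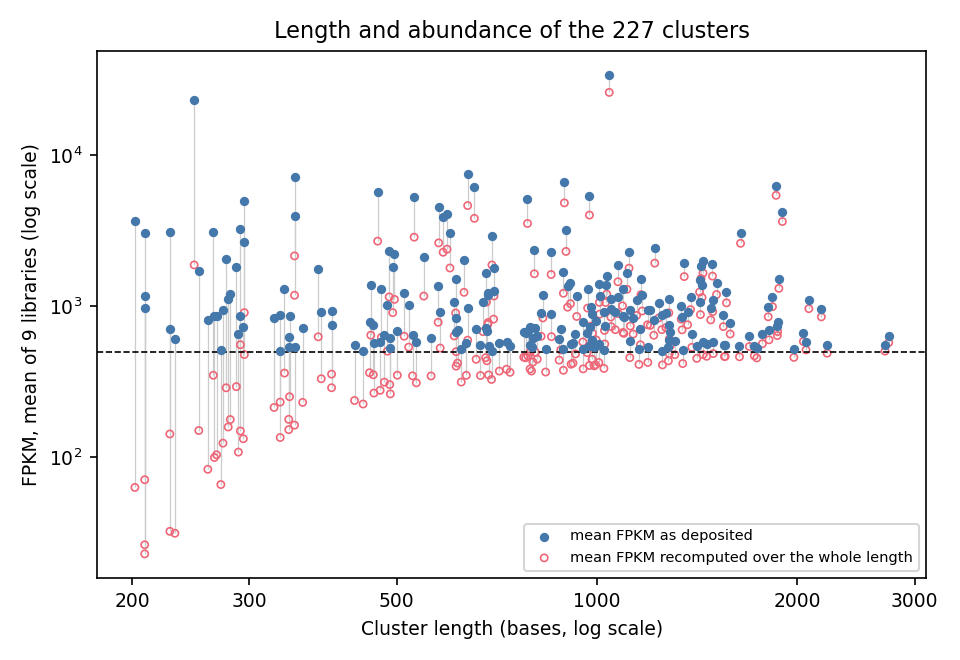
Mean FPKM over 9 libraries against cluster length for the 227 clusters, both axes on a log scale. Filled circles are deposited values, open circles the values recomputed over the whole deposited length, joined per cluster, and the dashed line is 500 FPKM. The drop is largest for the shortest clusters, and 126 of the 227 stay at or above the line.

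The names of the clusters also stood close together. All 227 shared the number 23439 before the point of the name, as did 99.3% of the table. The number after the point lay between 50000 and 55000, limits set after the names were seen, for 179 of them (78.9%), against 43.7% of the clusters from 100 to 500 FPKM and 8.10% of those under 100 FPKM. The sources used here do not say how these numbers were given.

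The spread between libraries of a level was close to that of the table for most of the clusters. The pooled SD of log2(FPKM + 1) within levels had a median of 0.318 (interquartile range 0.217 to 0.526) over the 227 clusters and 0.340 over the table. Over the clusters from 100 to 500 FPKM the median was lower, at 0.283. The steadiest was rank 18, with an SD of 0.0910, followed by rank 215 with 0.0944 and rank 226 with 0.104. Rank 215, of 1976 bases, had 515.09, 504.28 and 447.70 FPKM at 0 mM, 533.94, 616.11 and 560.79 FPKM at 100 mM, and 535.31, 515.75 and 490.78 FPKM at 400 mM. An SD over 1 was found for 16 of the 227 clusters (7.05%) and for 2.70% of the table. Among the clusters from 100 to 500 FPKM the share was 4.13%. The largest SDs of the 227 were 5.39 for rank 157, 5.27 for rank 116 and 5.17 for rank 198, all described above.

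In 100 mM against 0 mM, which asks how leaves at a moderate salt level differ from leaves with no added salt, 10 of the 227 clusters rose and 0 fell. In the edgeR quasi-likelihood test over all 56832 clusters tested, 0.424% were called higher and 0.0757% lower. Of the 1307 clusters from 100 to 500 FPKM, 47 were called higher and 1 lower. The 10 were ranks 42, 107, 113, 153, 162, 168, 169, 191, 194 and 196, so that 1 of them was among the 100 most abundant clusters and 9 were below. Their lengths ran from 287 to 2744 bases with a median of 930. In the median they rose 3.69-fold (log2 1.88, with a range of 1.0 to 3.03), and adjusted p-values lay between 0.0383 and 0.0497. For all 10 every 100 mM library lay above every 0 mM library. At 0 mM 8 of them had a mean under 500 FPKM, so that they entered the list through their salt libraries.

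Among the 10 called clusters the strongest rise was that of rank 162, Cluster-23439.55055, of 1772 bases. It had 97.00, 166.01 and 196.96 FPKM at 0 mM, 803.36, 1136.51 and 1212.31 FPKM at 100 mM, and 400.38, 817.99 and 1085.22 FPKM at 400 mM. All 6 salt libraries lay above all 0 mM libraries, and both salt levels overlapped. At 100 mM its log2 fold change was 3.03 ± 0.46 (SE, edgeR adjusted p = 0.0467).

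Rank 113, Cluster-23439.55399, of 854 bases, had 215.97, 483.89 and 336.68 FPKM at 0 mM, 1330.69, 1412.51 and 1509.62 FPKM at 100 mM, and 975.44, 722.24 and 989.42 FPKM at 400 mM. None of its levels overlapped, with 100 mM highest and 0 mM lowest. Its log2 fold change at 100 mM was 2.28 ± 0.31 (SE, edgeR adjusted p = 0.0417).

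Ranks 153, 168 and 194 followed, with log2 fold changes of 2.19 ± 0.31, 2.18 ± 0.32 and 1.89 ± 0.30 (SE, edgeR adjusted p = 0.0435, 0.0444 and 0.0493). Rank 153 had 227.22, 316.49 and 273.39 FPKM at 0 mM and 1113.75, 894.54 and 1144.09 FPKM at 100 mM. Rank 168 had 160.36, 307.15 and 298.75 FPKM at 0 mM and 837.07, 1006.28 and 1083.90 FPKM at 100 mM. In both, the lowest 100 mM library lay far above the highest 0 mM library.
Rank 194 had 144.20, 299.96 and 267.27 FPKM at 0 mM and 642.68, 824.43 and 790.79 FPKM at 100 mM. Rank 42, the most abundant of the 10 and the shortest at 287 bases, had 574.99, 1018.11 and 618.61 FPKM at 0 mM, 2233.33, 2242.55 and 2384.55 FPKM at 100 mM, and 2014.56, 2661.50 and 2708.22 FPKM at 400 mM.

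**Figure D4:**
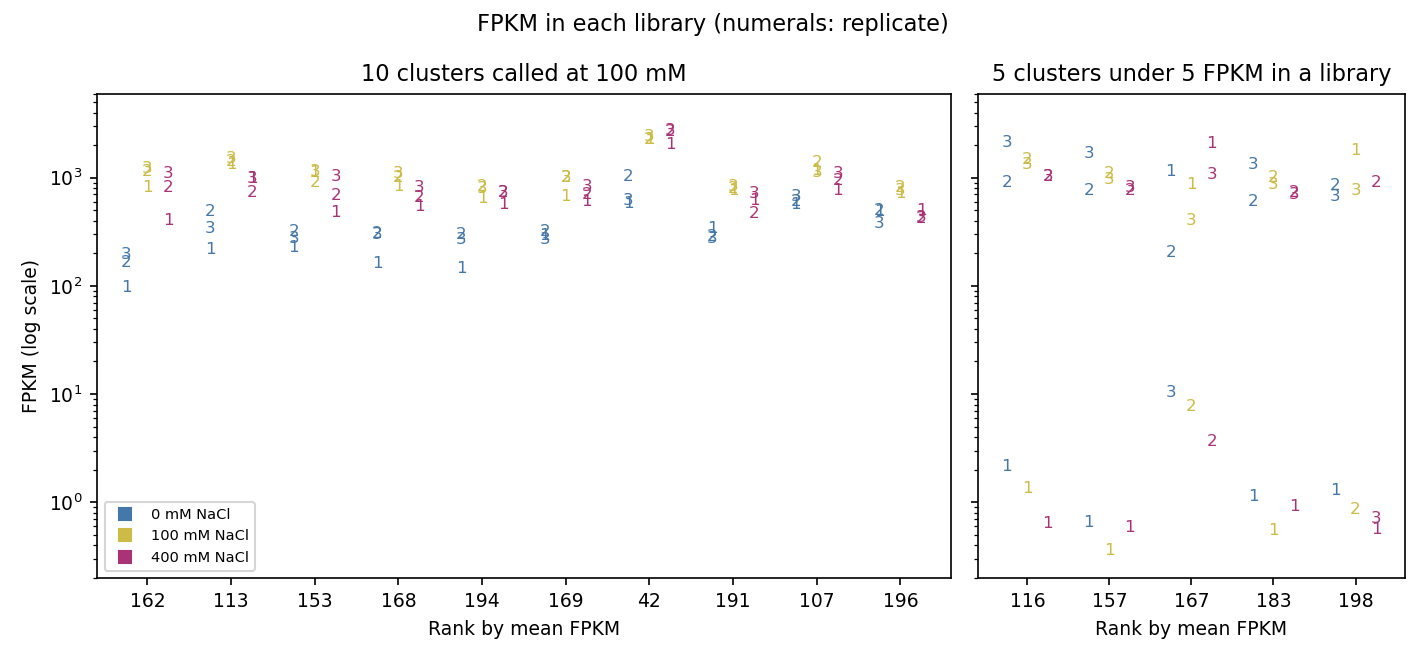
FPKM in each library, on a log scale, for the 10 clusters called at 100 mM (left) and the 5 clusters under 5 FPKM in at least 1 library (right), by rank of mean FPKM. Numerals are replicates and colours the salt levels. On the left every 100 mM library lies above every 0 mM library of the same cluster, and on the right ranks 116, 157 and 183 are near 0 in the libraries numbered 1 at each level.

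No cluster of the list was called lower at 100 mM, while an unadjusted p under 0.05 was reached by 19 for a lower level and by 51 for a higher one. Over all clusters tested the corresponding shares were 6.53% and 8.9%. The largest difference downward among clusters with no overlap was that of rank 171, Cluster-23439.49878, of 801 bases. It had 686.10, 1228.51 and 1855.01 FPKM at 0 mM, 176.68, 103.04 and 284.13 FPKM at 100 mM, and 640.07, 469.21 and 101.93 FPKM at 400 mM, which is a log2 fold change of -2.50 ± 0.70 at 100 mM (SE, edgeR adjusted p = 0.152). Rank 90, Cluster-23439.53565, of 1238 bases, had 1040.00, 2504.41 and 2111.26 FPKM at 0 mM and 163.66, 318.93 and 763.02 FPKM at 100 mM, a log2 fold change of -1.91 ± 0.61 (SE, edgeR adjusted p = 0.198). Rank 125 had a log2 fold change of -1.48 ± 0.45 (SE, edgeR adjusted p = 0.178). In all 3 the 100 mM libraries lay below all 0 mM libraries.

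Without regard to the test, 44 clusters had all 100 mM libraries above all 0 mM libraries on FPKM and 43 had them all below. In the table as a whole this held for 9.66% of the clusters upward and 21.8% downward, and in the 227 clusters for 19.4% and 18.9%. For the clusters from 100 to 500 FPKM it held for 20.8% and 17.4%, so the difference from the table was not particular to the 227. The differences upward had a median of 3.08-fold and 32 of 44 over 2-fold, against a median of 1.62-fold and 14 of 43 downward. The split depended on the scaling. On CPM with TMM factors, which are edgeR's correction of library size, 55 clusters lay higher and 23 lower, against 16.7% and 12.5% of the clusters tested in the table. The median fitted log2 fold change of the 227 clusters was 0.12, against 0.21 for the clusters from 100 to 500 FPKM and -0.06 over all clusters tested. When libraries were scaled by their size alone, the medians of the 227 and of all clusters tested turned to -0.15 and -0.31. The sign for the 227 thus depended on the scaling. The TMM factors were 1.09 to 1.15 at 0 mM, 0.882 to 1.001 at 100 mM and 0.915 to 1.005 at 400 mM, and their part in the split was not tested.

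The number of calls changed with single libraries. Without any single one of the 0 or 100 mM libraries, or without 400 mM replicate 2, 0 clusters of the list were called, while 15 were called without 400 mM replicate 1 and 7 without 400 mM replicate 3. The fold changes moved less than the calls, as that of rank 162 ran from 2.77 to 3.26 on the log2 scale when any 1 library was left out. DESeq2 called 54 clusters, 44 higher and 10 lower, at 5.28% and 3.12% of the clusters it tested, and its calls included all 10. Without the 5 clusters under 5 FPKM the median was again 0.12, and without replicate 1 of both salt levels 14 clusters were called, all higher.

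In 400 mM against 0 mM, which sets the high salt level against no added salt, edgeR called 0 of the 227 clusters and 0.0% of all clusters tested. Before adjustment, p was under 0.05 for 51 higher and 20 lower clusters, against 8.13% and 4.9% of all clusters tested, and 3 of the 20 were among the 10 highest clusters. DESeq2 called 33 higher and 9 lower, at 3.9% and 1.85% of the clusters it tested. The largest differences upward among clusters with no overlap were those of ranks 163, 162 and 222, with log2 fold changes of 2.74 ± 0.89, 2.52 ± 0.45 and 2.43 ± 0.57 (SE, edgeR adjusted p = 0.263, 0.151 and 0.181). Rank 163, a cluster of 289 bases, had 74.66, 142.56 and 168.61 FPKM at 0 mM and 254.72, 1457.70 and 690.53 FPKM at 400 mM. Rank 222, of 1024 bases, had 46.27, 201.26 and 171.66 FPKM at 0 mM and 393.25, 720.75 and 870.45 FPKM at 400 mM. In each of these 2 the 400 mM replicate 1 was the lowest of its level, as it was for rank 162.

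Downward, the largest differences among clusters with no overlap were those of ranks 145, 125 and 128, with log2 fold changes of -3.87 ± 0.97, -2.98 ± 0.47 and -2.85 ± 0.71 (SE, edgeR adjusted p = 0.195, 0.123 and 0.194). Rank 145, of 808 bases, had 957.15, 1631.23 and 1402.35 FPKM at 0 mM, 1448.01, 302.50 and 431.14 FPKM at 100 mM, and 31.01, 196.03 and 19.60 FPKM at 400 mM. Rank 125, of 327 bases, had 1561.81, 1552.48 and 2171.21 FPKM at 0 mM, 531.58, 484.44 and 634.47 FPKM at 100 mM, and 129.14, 378.91 and 106.77 FPKM at 400 mM. It was the only cluster of the 227 whose 3 levels stood apart in descending order with no overlap, and none stood apart in ascending order. Rank 128, of 260 bases, had 466.98, 1745.16 and 1618.05 FPKM at 0 mM, 731.02, 1162.76 and 1111.54 FPKM at 100 mM, and 181.21, 262.53 and 41.08 FPKM at 400 mM. Its 0 and 100 mM libraries overlapped, and the 400 mM libraries lay below both.

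Counting overlap alone, 42 clusters had all 400 mM libraries above all 0 mM libraries on FPKM and 47 had them all below, against 9.67% and 17.8% of the table. The shares were 18.5% and 20.7% of the 227, and 17.1% and 23.6% of the clusters from 100 to 500 FPKM. On CPM with TMM factors the numbers were 57 and 21, against 15.9% and 11% of the clusters tested in the table. The median fitted log2 fold change was 0.10, against -0.02 over all clusters tested, and it was -0.10 when libraries were scaled by their size alone. The 10 clusters called at 100 mM had log2 fold changes from 0.17 to 2.52 at 400 mM with a median of 1.57, and for 9 of them the 400 mM libraries did not overlap the 0 mM libraries. Both comparisons share the 0 mM libraries. The exception was rank 196, with 486.54, 496.07 and 373.91 FPKM at 0 mM, 716.53, 804.47 and 760.41 FPKM at 100 mM, and 495.02, 416.46 and 427.88 FPKM at 400 mM. It stood higher at 100 mM than at the other levels. Without replicate 1 of both salt levels, 5 clusters were called at 400 mM, all higher, and 1 was called without 400 mM replicate 1 alone.

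**Figure D5:**
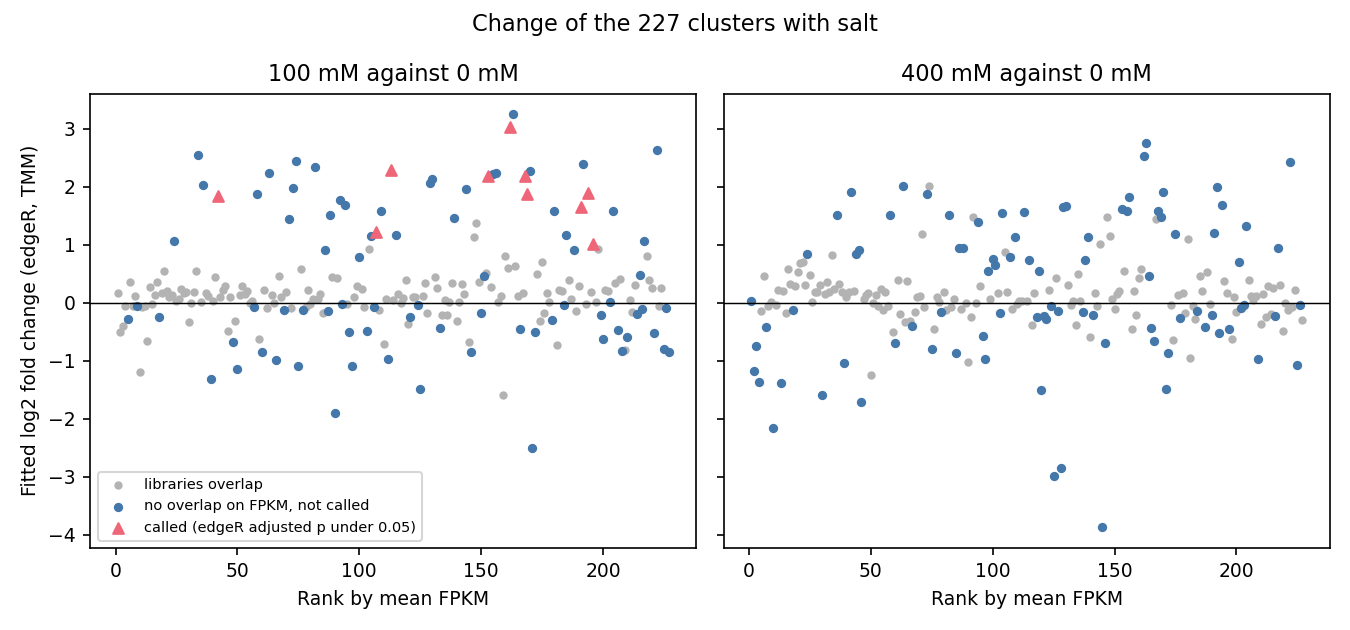
Fitted log2 fold change of the 227 clusters against rank of mean FPKM, at 100 mM (left) and 400 mM (right) against 0 mM. Triangles mark the 10 clusters called by edgeR at 100 mM, dark circles clusters whose libraries do not overlap on FPKM and were not called, and light circles the others. Between ranks 1 and 50, 1 of the 10 calls is found, and the extremes reach 3.25 upward at 100 mM and -3.87 at 400 mM.

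In 400 mM against 100 mM, edgeR called 0 of the 227 clusters and 0.0% of all clusters tested. Before adjustment, p was under 0.05 for 8 clusters with a higher and 21 with a lower level at 400 mM, against 3.63% and 3.39% of all clusters tested, and DESeq2 called 1 higher and 5 lower, at 0.799% of its clusters in each direction. On FPKM, 12 clusters lay higher and 29 lower with no overlap, against 9.89% and 6.74% of the table. On CPM with TMM factors 8 lay higher and 29 lower, against 8.08% and 8.9%. Among clusters with no overlap on FPKM and an unadjusted p under 0.05, the largest differences upward were those of ranks 208, 48 and 44, with log2 fold changes of 0.95, 0.80 and 0.61 (edgeR adjusted p = 0.635, 0.532 and 0.642). Rank 48, of 682 bases, had 1758.68, 2058.74 and 2178.67 FPKM at 0 mM, 1228.95, 820.44 and 1147.92 FPKM at 100 mM, and 2199.02, 2010.76 and 1602.48 FPKM at 400 mM. It was lowest at 100 mM and overlapped between 0 and 400 mM. Under the same limits, ranks 145, 128 and 125 differed most downward, with log2 fold changes of -3.19, -2.66 and -1.50 (edgeR adjusted p = 0.606, 0.570 and 0.613).

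With both salt levels joined against 0 mM, 3 of the 227 clusters rose and 0 fell, against 0.118% called higher and 0.0299% called lower over all clusters tested. They were rank 42, with a log2 fold change of 1.87 ± 0.20, rank 169 with 1.68 ± 0.22 and rank 191 with 1.42 ± 0.18 (SE, edgeR adjusted p = 0.0390, 0.0498 and 0.0498). Rank 169, the longest of the 227 clusters, had 291.44, 316.49 and 268.53 FPKM at 0 mM, 670.80, 1006.43 and 998.16 FPKM at 100 mM, and 603.84, 699.11 and 834.08 FPKM at 400 mM. Rank 191, of 1006 bases, had 341.02, 287.85 and 271.18 FPKM at 0 mM, 754.98, 791.14 and 825.35 FPKM at 100 mM, and 618.00, 462.38 and 712.78 FPKM at 400 mM. In all 3 clusters each salt library lay above each 0 mM library. The largest differences downward among clusters with no overlap were those of ranks 125, 171 and 39, with log2 fold changes of -2.23, -1.997 and -1.17 (edgeR adjusted p = 0.0574, 0.138 and 0.149). An unadjusted p under 0.05 was found for 51 higher and 20 lower clusters, against 9.18% and 7.41% of all clusters tested.

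All 6 salt libraries lay above all 0 mM libraries for 32 of the 227 clusters on FPKM and below them for 19, against 4.75% and 10.1% of the table. The shares were 14.1% and 8.37% of the 227, and 12.2% and 8.95% of the clusters from 100 to 500 FPKM. On CPM with TMM factors the numbers were 37 and 8, against 8.47% and 4.93%. The 32 had a median difference of 3.09-fold, and the 19 one of 1.69-fold. Of the 3 joint calls, 0 were left without any single 0 or 100 mM library, without 400 mM replicate 2 or without 400 mM replicate 3. Without 400 mM replicate 2 the only call was 1 cluster with a lower level. Without 400 mM replicate 1, 15 clusters were called, all higher. DESeq2 called 46 higher and 9 lower, at 6.01% and 3.24% of the clusters it tested.

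By the order of the level means, no single course prevailed. The mean FPKM was lowest at 100 mM and highest at 0 mM for 61 clusters, lowest at 400 mM and highest at 0 mM for 56, and lowest at 0 mM and highest at 100 mM for 49. Another 26 were lowest at 100 mM and highest at 400 mM, 19 lowest at 400 mM and highest at 100 mM, and 16 increased over the levels in order. Where the libraries had to stay clear of each other, 16 clusters had 100 mM above both other levels (7.05%, against 2.31% of the table) and 5 had it below both (2.20%, against 4.65%). Ranks 113 and 196 were among the 16, and rank 48 was among the 5.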

How the data were processed

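RNA from leaves was sequenced in 9 libraries, 3 each at 0, 100 and 400 mM NaCl. The authors deposited 1 table per library with an estimated count and an FPKM for each of 126059 clusters, per the file headers, and a table of the FPKM and length of 31628 clusters. The deposited counts are estimated counts, since 38.5% to 42.5% of them in a library are not whole. The submitters' processing notes list Bowtie2 2.0.6 and TopHat2 2.0.9 with no stated role. For the assembler, the counting tool and the strand setting, the method was not given in the sources used here.

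Counts were rounded and fitted with the quasi-likelihood test of edgeR 4.0.16 (R 4.3.3), with TMM normalization. The default filter kept 56832 clusters. The fit took all 9 libraries as 3 groups, with 6 residual degrees of freedom. A call required a Benjamini-Hochberg adjusted p under 0.05 over all clusters tested. The common biological coefficient of variation was 0.758. The fit was tested on simulated data with changes put in at 100 mM, and it missed most of them at every size of change. A count of 0 calls therefore does not show that no cluster changed. DESeq2 1.42.0 and limma 3.58.1 on log2(FPKM + 1) and log2(FPKM + 0.1) were alternatives. The implied length is the count divided by FPKM and by the library total, and FPKM over the whole length puts the deposited length in its place.

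Clusters named in the text were the 10 highest, the 3 on either side of the threshold, the 3 longest and shortest, the 3 with the largest and smallest SD, and, per comparison and direction, up to 5 called clusters with no overlap or, where none was called, up to 3 with an unadjusted p under 0.05 and no overlap, taken by fold change. Ranks 42, 169, 191 and 196 at 100 mM and the clusters near 0 in libraries numbered 1 were described after their values were seen. The 227 clusters, the classes of rank and these lists were chosen with earlier results of these data known. Sums over the 227 clusters are therefore given with their spread and without a p-value.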

Additional observations from a re-analysis of the deposited data

How the results depend on the processing

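The 26 results for named clusters kept their direction in all 514 combinations of a result with an alternative setting. They had been chosen for libraries with no overlap and a small p in these data. A reversal was therefore unlikely from the start, and the kept direction is no support. Calls often changed side. At 100 mM the 10 calls among the 227 clusters became 6 with scaling by library size alone, 6 with only the groups compared, 28 with only the clusters of the deposited table, 23 with edgeR's newer adjusted deviances (chosen after seeing the data), 54 with DESeq2, and 26 and 19 with limma on log2(FPKM + 1) and log2(FPKM + 0.1). At 400 mM the 0 calls became 1 with only the table, 1 with the newer deviances, 5 without replicate 1 of both salt levels (chosen after seeing the data), 42 with DESeq2, and 3 and 2 with limma. Between the salt levels DESeq2 gave 6 calls. For both levels against 0 mM the 3 calls became 1 with DESeq2 size factors, 33 with only the table, 24 with the newer deviances, 19 without replicate 1 of both salt levels, 55 with DESeq2, and 31 and 22 with limma. With the replicate number as a block the calls were 21 at 100 mM, 4 at 400 mM and 19 for both levels. Deviations of same-numbered libraries correlated at -0.0116 to 0.216 over all clusters tested, with 1 of 9 pairs over 0.1. Of 18 matches of a library to another level, 12 were best with the own number. For 3 of 9 libraries this held at both other levels. Over the 227 clusters the correlations ran from 0.0396 to 0.798, with 8 of 9 pairs over 0.1 and 8 of 18 such matches. Without the 5 clusters under 5 FPKM in a library they ran from -0.295 to 0.416, with 3 of 9 pairs and 7 of 18 matches. The samples share a number and were not treated as paired.

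The median log2 fold change turned to -0.15, -0.10 and -0.14 with scaling by library size alone, to -0.13, -0.11 and -0.14 with limma on log2(FPKM + 1), and to -0.14, -0.11 and -0.14 on log2(FPKM + 0.1), for 100 mM, 400 mM and both levels against 0 mM. The difference in share turned to 0.173 percentage points of counts at 100 mM with a threshold of 250 FPKM. Between the salt levels it turned to 0.0212 points of FPKM with the list over whole lengths and to 0.0288 points of counts with a threshold of 1000 FPKM. For both levels it was -2.64 points of FPKM for the clusters highest in CPM and -1.76 points of counts with a threshold of 1000 FPKM. The number of clusters was 151 with the threshold at every level and 126 over the whole length, and the median length was 786, 923, 1492 and 1032 bases with thresholds of 1000 and 250 FPKM, by CPM and over the whole length.

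Leaving out 1 library at a time gave 0 to 15 calls at 100 mM, 0 to 1 at 400 mM, 0 between the salt levels and 0 to 15 for both. Medians ran from 0.04 to 0.23, 0.04 to 0.21, -0.15 to -0.01 and 0.04 to 0.15 in the same order, shares of FPKM from -3.46 to -1.16, -4.19 to -1.88, -1.47 to 0.157 and -3.83 to -1.52 points, and shares of counts from -2.06 to -0.878, -1.93 to -0.915, -0.643 to 0.535 and -1.82 to -1.14 points. Between the salt levels the share of FPKM turned without 100 mM replicate 3, and the share of counts without it or, at 0.382 points, without 400 mM replicate 2. The list held 225 to 231 clusters of a median length of 829 to 890 bases and a median SD of 0.283 to 0.334. Apart from the scaling and the construction of each list or fit, the cause was not tested. Clusters of under 300 bases rest on few counts, a median of 724 per library, at a high FPKM.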
